A study of Mus musculus with 12 samples.

Results

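Among the genes expressed in liver are those that carry the glucagon signal through cyclic AMP, and 10 of them were followed here across zinc-drinking and dexamethasone-injected mice. They were picked by name as rows of the count table and comprise the glucagon receptor gene *Gcgr*, the phosphodiesterase genes *Pde4b*, *Pde4d* and *Pde3b*, the CREB pathway genes *Crem*, *Creb1*, *Crtc2*, *Sik1* and *Sik2*, and *Ppargc1a*. All 10 were found, each in 1 row, among the 54838 genes of the table. RNA had been sequenced from whole livers of 12 wild-type C57BL/6J mice, bought females aged 8 to 14 weeks, in 4 groups of 3. For 7 days the drinking water was plain or held 25 mM ZnSO4, after which PBS or 200 µg dexamethasone (Dex, a glucocorticoid drug that activates the glucocorticoid receptor) was injected into the peritoneum, and livers were collected 2 h later. Group names join water and injection, as in zinc-Dex, and every mouse, the water-PBS controls included, had been injected. No mouse received glucagon, and neither feeding state nor cyclic AMP is given in the labels. The design text calls the 3 mice of a group biological replicates.

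In the hepatocyte, glucagon binds its receptor, the stimulatory G protein switches on adenylyl cyclase, and the cyclic AMP that is made frees the catalytic subunits of protein kinase A. The kinase phosphorylates the transcription factor CREB and restrains the salt-inducible kinases, which lets the coactivator CRTC2 enter the nucleus and switch on genes such as that of the coactivator PGC-1alpha (*Ppargc1a*) and of the gluconeogenic enzymes. Phosphodiesterases end the signal by hydrolysing cyclic AMP, and the glucocorticoid receptor is known to act together with CREB at several of the same fasting genes.

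Dex lowered *Pde4b* 9.45-fold on plain water and 10.9-fold on zinc water, and this was the largest change among the 10 genes. On zinc water Dex also raised *Ppargc1a* 1.79-fold and *Sik1* 1.84-fold, while the other members did not pass both thresholds in any comparison. On plain water these genes were 1.52-fold and 1.26-fold higher, under the fold threshold. Neither Dex effect was shown to differ between the waters (interaction, DESeq2 adjusted p = 0.999 for each). The zinc-water value of *Ppargc1a* fell under the fold threshold without zinc-PBS replicate 2 or zinc-Dex replicate 1. A gene past both thresholds, a Benjamini-Hochberg adjusted p below 0.05 across all genes tested and a log2 fold change of more than 0.8 in either direction, is said to be called. Levels below are normalized read counts (counts divided by the library's size factor), given for replicates 1 to 3 in this order or as mean ± SD with n = 3 mice. Library totals lay between 9091152 and 12303527 counts. The lowest raw count of a member in any library was 16, for *Pde4b* in water-Dex, and every member passed the low-count filtering in all comparisons.

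**Figure D1:**
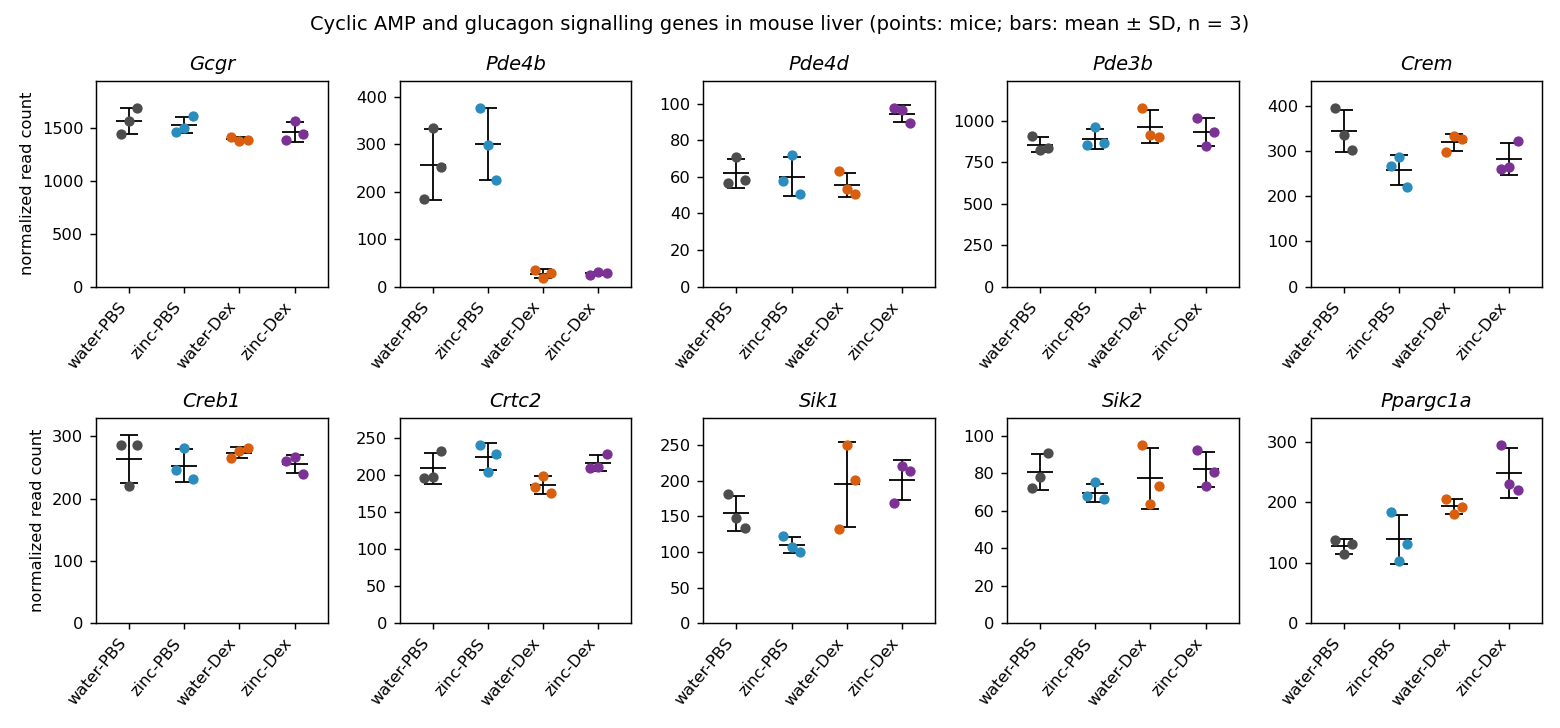
Normalized read counts (y axis, from 0) of the 10 genes in each of the 4 groups (x axis); points are mice, horizontal bars the mean and whiskers the SD of 3 mice. *Pde4b* lies between 17.0 and 35.5 in the 6 Dex-injected mice and between 184 and 376 in the 6 PBS-injected mice, while *Gcgr*, *Pde3b* and *Creb1* stay within a narrow range.

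The labels were checked first. *Mt1* and *Mt2*, metallothionein genes that zinc induces, rose with zinc after PBS and *Slc39a4*, a zinc importer gene, fell. Dex alone also raised *Mt1* and *Mt2* on plain water (log2 4.44 and 6.42), to means above those of zinc-PBS. After Dex, zinc gave 0.85 for *Mt1* (adjusted p = 0.0189 in DESeq2 and 0.13 in edgeR) and 0.69 for *Mt2* (DESeq2 adjusted p = 0.476), so in the Dex groups the zinc label rests mainly on *Slc39a4*, whose mean was 624 in water-Dex and 214 in zinc-Dex. *Tsc22d3* and *Fkbp5*, direct targets of the glucocorticoid receptor, rose with Dex on plain water (log2 fold changes 2.28 and 3.12) and on zinc water (2.38 and 2.74). The 5 hepatocyte markers summed to between 1094111 and 1569944 normalized counts per library, against 3846 to 5503 for 6 Kupffer cell markers, so the hepatocyte markers were present throughout. Of 5 pancreas markers, *Prss2*, *Cpa1* and *Ins2* were at 0 in all 12 libraries, *Ctrb1* reached at most 1.09 and *Cela1* lay between 61.9 and 134. The 4 gut epithelium markers summed to 513.5 to 747, nearly all of it *Fabp2* (group means 601 to 664). *Vil1* reached at most 25.3, *Cdx2* 2.22 and *Lct* 0.96.

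Per kilobase of merged exon, which allows a rough comparison between genes, *Gcgr* was by far the most abundant member in water-PBS, with 598 ± 47.2 normalized counts. This length merges the exons of all annotated transcripts, whether used in liver or not, so ranks and shares on this scale are approximate. *Pde3b* (93.9 ± 4.99), *Crem* (58.5 ± 7.98) and *Crtc2* (51.0 ± 5.06) followed, the last pair differing by less than their spread. *Sik1* (30.1 ± 4.77) and *Pde4b* (24.3 ± 7.08) were next and also lay within each other's spread. *Ppargc1a* (19.3 ± 1.86) and *Creb1* (19.2 ± 2.81) were level, and *Sik2* (8.45 ± 1.003) and *Pde4d* (5.16 ± 0.65) were lowest. With Dex on plain water *Pde4b* moved from the sixth place to the last, at 2.57 ± 0.89 per kilobase.

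The 250 bases upstream of the start site are shown for the *Pde4b* transcript nearest the 5′ end in the RefSeq table and for *Ppargc1a*, because these genes moved in opposite directions with Dex and each window holds 1 copy of the short form of the cyclic AMP response element. Capitals mark that match, printed 5′ to 3′ on the gene's strand of GRCm38.p6 (the mm10 assembly).
Pde4b, plus strand, chr4:102421305-102421554: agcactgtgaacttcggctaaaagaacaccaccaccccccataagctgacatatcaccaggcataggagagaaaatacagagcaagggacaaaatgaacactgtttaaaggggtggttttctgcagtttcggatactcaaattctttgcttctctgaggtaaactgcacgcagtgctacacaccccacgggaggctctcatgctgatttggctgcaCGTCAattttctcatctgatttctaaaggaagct
Ppargc1a, minus strand, chr5:51567726-51567975: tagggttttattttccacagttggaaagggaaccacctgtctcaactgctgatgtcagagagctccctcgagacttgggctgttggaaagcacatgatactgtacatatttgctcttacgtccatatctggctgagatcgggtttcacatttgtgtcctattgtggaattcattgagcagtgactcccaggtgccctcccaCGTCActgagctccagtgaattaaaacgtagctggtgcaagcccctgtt
The *Pde4b* window lies inside the gene as annotated (chromosome 4, 102087543 to 102607259, plus strand), since transcripts of this gene begin at several places. The table held 9 windows for 6 members, namely *Creb1*, *Gcgr*, *Pde4b* with 4 start sites, *Pde4d*, *Ppargc1a* and *Sik2*. Both strands of each window, 250 bases before to 50 after the start site, were searched for the full cyclic AMP response element (TGACGTCA), for its short form (TGACG, which the full element contains) and for a core of the glucocorticoid response element (ACANNNTGT). Neither the full element nor the glucocorticoid core was matched in any of the 9 windows, whereas 1.79% and 6.85% of all 32851 promoters in the table hold them. The short form was matched at -34 in the *Pde4b* window shown, at -49 in *Ppargc1a*, and at -1 and 13 in *Sik2*, counted from the start site to the first base of the match, and 20.8% of all promoters hold it. A match is a description of the letters and not evidence of binding.

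The receptor comes first in the pathway. *Gcgr* (ENSMUSG00000025127, chromosome 11, 120530699 to 120538986) stood at 1445, 1565 and 1692 in water-PBS, and at 1466, 1503 and 1615 in zinc-PBS. After Dex it stood at 1414, 1382 and 1383 on plain water and at 1386, 1569.5 and 1439.9 on zinc water. The water-Dex mice were all below the water-PBS mice, and the groups overlapped in the other 3 comparisons. The log2 fold change with Dex was -0.17 (95% interval -0.34 to -0.01, DESeq2 adjusted p = 0.146) on plain water and -0.06 (-0.23 to 0.10, adjusted p = 0.711) on zinc water. Zinc differences were -0.04 (-0.20 to 0.13) after PBS and 0.07 (-0.09 to 0.24) after Dex.

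Among the phosphodiesterases, *Pde4b* (ENSMUSG00000028525), which encodes a cyclic AMP-specific enzyme best known from leukocytes, held the largest change. Its levels were 184, 333 and 253 in water-PBS and 35.5, 17.0 and 28.7 in water-Dex. On zinc water they were 376, 297 and 225 after PBS and 23.9, 30.0 and 28.8 after Dex. Every PBS-injected mouse was far above every Dex-injected mouse, on both kinds of water. The means fell from 257 ± 74.7 to 27.1 ± 9.36 on plain water, 9.45-fold lower (log2 -3.24, SE 0.29, 95% interval -3.81 to -2.67, DESeq2 adjusted p = 4.6e-27), and from 299.7 ± 75.5 to 27.6 ± 3.24 on zinc water, 10.9-fold lower (log2 -3.44, SE 0.29, DESeq2 adjusted p = 1.2e-30). Zinc itself left *Pde4b* with overlapping groups after PBS (log2 0.22, -0.26 to 0.70) and after Dex (0.02, -0.62 to 0.66), and the Dex effect on the 2 kinds of water differed by -0.20 (-1.002 to 0.60, unadjusted p = 0.624, DESeq2 adjusted p = 0.999).

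The summed level of white blood cell markers was also lower after Dex, though not every marker was. The summed level of 8 lymphocyte and neutrophil markers was 269 to 300.3 in water-PBS against 193 to 248 in water-Dex, and 259.6 to 374 in zinc-PBS against 212 to 221 in zinc-Dex. These sums did not overlap on either water, which is to be read beside 38.97% and 38.1% of all genes without overlap. Of the 8 markers, 1 was called lower with Dex on plain water and 0 on zinc water, beside 4.79% and 4.68% of all genes. None of the 8 was at 0 in all libraries, although the neutrophil marker *Ly6g* was at 0 in every plain-water mouse. *Ptprc*, the pan-leukocyte gene CD45, made up most of the sum and went from 231 ± 14.1 to 190.4 ± 23.1 on plain water. *Cd3e*, *Cd79a*, *Ms4a1* and *S100a9* were also lower on average after Dex on both waters, all at low counts. *Ms4a1* went from 9.48 to 1.37 on plain and from 8.96 to 2.79 on zinc water. *Cd79a* went from 5.80 to 1.39 and from 8.38 to 3.56. *S100a8* was higher on plain water (9.77 to 12.5) but lower on zinc water (20.1 to 15.4). *Nkg7* was lower on plain water (7.19 to 6.09) but higher on zinc water (6.84 to 8.33). The 6 Kupffer cell markers summed to 3846 to 5503 in water-PBS and 4297 to 5272 in water-Dex, which overlapped, and none was called. The 5 hepatocyte markers summed higher after Dex, without overlap, at 1094111 to 1288236 in water-PBS and 1440131 to 1529586 in water-Dex. On zinc water their sums were 1149626 to 1294074.5 after PBS and 1476988 to 1569944 after Dex, and none was called. The part of white blood cells in the *Pde4b* result was not tested, and in whole liver fewer cells of a type and less RNA per cell cannot be told apart.

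*Pde4d* (ENSMUSG00000021699, chromosome 13, 108449948 to 109953461), another gene of the same enzyme family, was the only member with an adjusted p under 0.05 in a comparison of zinc with plain water. Its levels were 56.7, 71.0 and 58.2 in water-PBS, 57.8, 71.7 and 50.7 in zinc-PBS, 62.9, 53.2 and 50.5 after Dex on plain water, and 97.8, 96.6 and 89.4 after Dex on zinc water. The 3 zinc-Dex mice lay above all 9 others, which overlapped among themselves. Against water-Dex the log2 fold change was 0.77 (SE 0.21, 95% interval 0.36 to 1.18), with an adjusted p of 0.0255 in DESeq2 and 0.0584 in edgeR, and it stayed under the fold threshold except without water-Dex replicate 1, where it was 0.87 (DESeq2 adjusted p = 0.0498). Its adjusted p was also over 0.05 with the replicate block (0.0714 in DESeq2), with only the 6 libraries compared (0.0703), and without water-Dex replicate 3 (0.214) or any 1 of the zinc-Dex mice (0.0657 to 0.181), so 7 of the 10 alternatives that gave one did not pass. Against zinc-PBS it was 0.65 (0.26 to 1.05, DESeq2 adjusted p = 0.00936), also under the threshold except without zinc-PBS replicate 2, where it was 0.80 (DESeq2 adjusted p = 0.00623), and its DESeq2 adjusted p was over 0.05 without zinc-PBS replicate 3 (0.0916) or zinc-Dex replicate 1 (0.0507). The interaction, the difference between these Dex effects, was 0.82 (0.23 to 1.40), with an unadjusted p of 0.00605 and a DESeq2 adjusted p of 0.999.

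*Pde3b* (ENSMUSG00000030671, chromosome 7, 114415281 to 114539251), the enzyme through which insulin lowers cyclic AMP, ranged only from 826 to 1079 over all 12 mice. Its group means were 856 ± 45.4 in water-PBS, 893 ± 60.9 in zinc-PBS, 966 ± 98.5 with Dex on plain water and 933 ± 85.7 with Dex on zinc water. All these groups overlapped, and its log2 fold change with Dex was 0.17 (-0.03 to 0.38, DESeq2 adjusted p = 0.259) on plain water and 0.06 (-0.14 to 0.27, adjusted p = 0.766) on zinc water.

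The fall of *Pde4b* was set beside the other cyclic AMP phosphodiesterase genes, 16 in all, on the same rough per-kilobase scale. The sum of all 16 was 301 ± 11.4 in water-PBS, 298 ± 11.8 in zinc-PBS, 279.7 ± 14.6 with Dex on plain water and 275 ± 14.97 with Dex on zinc water. *Pde8a* and *Pde3b* held 37.8% and 31.2% of it in water-PBS and 38.0% and 37.8% in water-Dex. *Pde4b* held 8.11% ± 2.55 in water-PBS and 9.49% ± 2.17 in zinc-PBS, and 0.91% ± 0.29 and 0.95% ± 0.16 after Dex. *Pde1a*, which encodes a calcium-regulated enzyme and was the only gene of the 13 outside the members to be called, rose with Dex from 5.71 ± 0.62 to 11.2 ± 1.34 per kilobase on plain water and from 4.46 ± 0.52 to 7.95 ± 1.43 on zinc water. The zinc-water call of *Pde1a* (log2 0.83) was lost without zinc-PBS replicate 3 (0.75), without zinc-Dex replicate 1 (0.68) and with only the 6 libraries compared. *Pde2a* was nearly without counts, but 64.3% of its exonic length is shared with *Gm45837* on the same strand, so its level is uncertain.

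**Figure D2:**
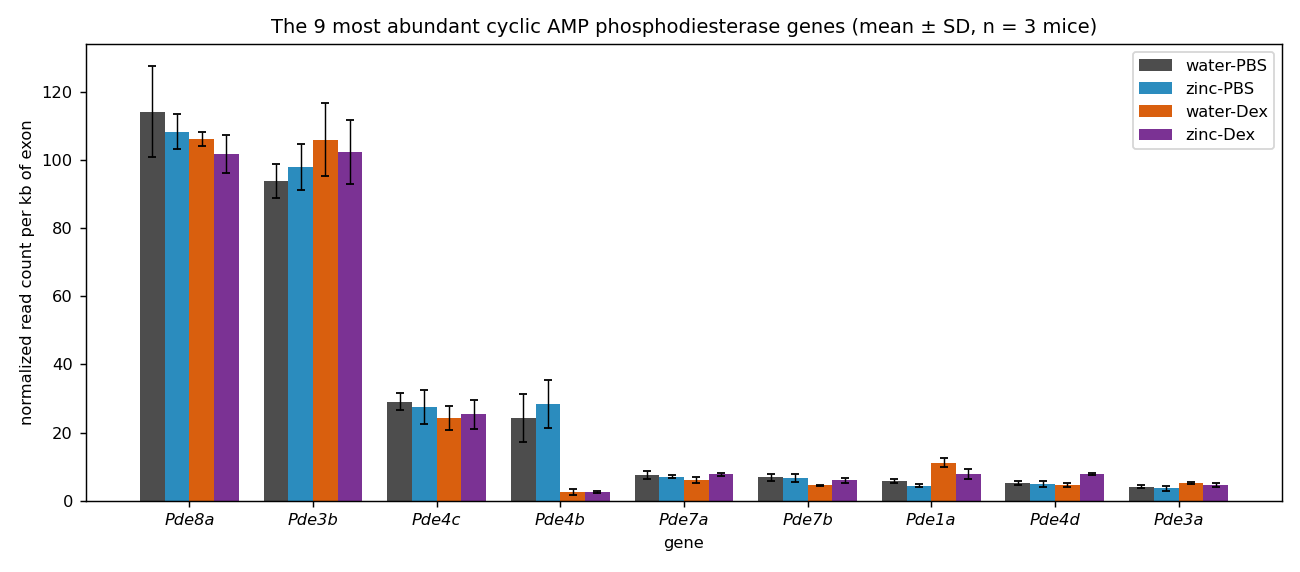
Levels of the 9 most abundant cyclic AMP phosphodiesterase genes (x axis) as normalized read counts per kilobase of merged exon (y axis), with bars for the group mean and whiskers for the SD of 3 mice. *Pde8a* and *Pde3b* lead in all 4 groups, and *Pde4b* drops from 24.3 to 2.57 on plain water and from 28.4 to 2.61 on zinc water with Dex.

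Of the transcription factors, *Creb1* (ENSMUSG00000025958, chromosome 1, 64532645 to 64604548), the protein kinase A substrate itself, varied least between groups. Its 12 values lay between 219 and 287, its group means differed by at most 1.08-fold, and its log2 differences in the 4 comparisons ran from -0.10 to 0.06, with 95% intervals inside -0.37 to 0.32. *Crem*, the CREB relative that also yields the early repressor ICER, was measured at 396, 336 and 303 in water-PBS, and at 266, 286 and 221 in zinc-PBS. After Dex it was at 299, 334 and 327 on plain water and at 259.6, 264 and 323 on zinc water. The zinc-PBS mice were all below the water-PBS mice, and the groups overlapped in the other 3 comparisons. Its log2 fold change with zinc after PBS was -0.42 (-0.70 to -0.14, unadjusted p = 0.00324), which did not pass over all genes (adjusted p = 0.309 in DESeq2 and 0.346 in edgeR). The table counts all *Crem* transcripts together, so ICER was not measured on its own.

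*Crtc2* (ENSMUSG00000027936, chromosome 3, 90254163 to 90264125), the coactivator of CREB that glucagon brings into the nucleus, had group means of 209 ± 20.7 in water-PBS, 225 ± 18.5 in zinc-PBS, 186 ± 11.6 with Dex on plain water and 217 ± 10.7 with Dex on zinc water. The zinc-Dex mice (209.6, 211 and 229) were all above the water-Dex mice (184, 199 and 176), with a log2 fold change of 0.22 (-0.04 to 0.48, DESeq2 adjusted p = 0.618). Localization and phosphorylation, by which CREB and CRTC2 are mainly controlled, are not seen in read counts.

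The salt-inducible kinases hold CRTC2 in the cytoplasm, and *Sik1* is itself a CREB target gene. *Sik1* (ENSMUSG00000024042, chromosome 17, 31844250 to 31855804) stood at 182, 148 and 134 in water-PBS and at 122, 107 and 99.6 in zinc-PBS. After Dex it stood at 132, 251 and 202 on plain water and at 169, 221 and 213 on zinc water. The zinc-Dex mice were all above the zinc-PBS mice, whereas on plain water the replicate 1 mouse after Dex lay below all the controls. On zinc water it rose 1.84-fold with Dex (log2 0.88, SE 0.22, 95% interval 0.46 to 1.30, adjusted p = 0.000495 in DESeq2 and 0.00405 in edgeR). On plain water the value was 0.33 (-0.08 to 0.75, DESeq2 adjusted p = 0.298), and 0.55 without water-Dex replicate 1, with a DESeq2 adjusted p of 0.0292 and still under the fold threshold. The Dex effect was not shown to differ between the kinds of water (interaction 0.55, -0.05 to 1.14, unadjusted p = 0.0712, DESeq2 adjusted p = 0.999). Before Dex, zinc-PBS was lower than water-PBS in all 3 mice against all 3 (log2 -0.50, -0.93 to -0.07, unadjusted p = 0.0218, DESeq2 adjusted p = 0.678).

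*Sik2* (ENSMUSG00000037112, chromosome 9, 50892801 to 51009073) ranged from 63.8 to 95.4 over the 12 mice and overlapped in every comparison, with log2 differences between -0.21 and 0.24. An exon stretch of 1429 bases, 14.98% of its exonic length, lies opposite *Ppp2r1b*, and because the strand setting of the counting is not given, reads there may belong to either gene.

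*Ppargc1a* (ENSMUSG00000029167, chromosome 5, 51454250 to 51567726, minus strand) is the end point among the members, a CREB target whose product drives gluconeogenic and mitochondrial genes. It was at 138, 114 and 131 in water-PBS and 206, 181 and 192 in water-Dex, and at 183, 102 and 130.4 in zinc-PBS and 295, 229.9 and 220.1 in zinc-Dex. Every Dex-injected mouse was above every PBS-injected mouse on the same water, and on zinc water zinc-PBS replicate 1 came closest. The change was 0.60 (SE 0.20, 95% interval 0.21 to 0.99, DESeq2 adjusted p = 0.0155) on plain water, which is under the fold threshold, and 0.84 (SE 0.19, 0.46 to 1.22, DESeq2 adjusted p = 0.000183) on zinc water, a 1.79-fold rise. On plain water the DESeq2 adjusted p was over 0.05 without water-PBS replicate 2 (0.106), water-Dex replicate 1 (0.0821) or water-Dex replicate 3 (0.0538). The zinc-water value was near the fold threshold and fell under it without zinc-PBS replicate 2 (0.66) and without zinc-Dex replicate 1 (0.70). The interaction was 0.24 (-0.31 to 0.79, DESeq2 adjusted p = 0.999). The zinc-Dex mice were also all above the water-Dex mice, with a log2 fold change of 0.36 (-0.01 to 0.74, DESeq2 adjusted p = 0.522).

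**Figure D3:**
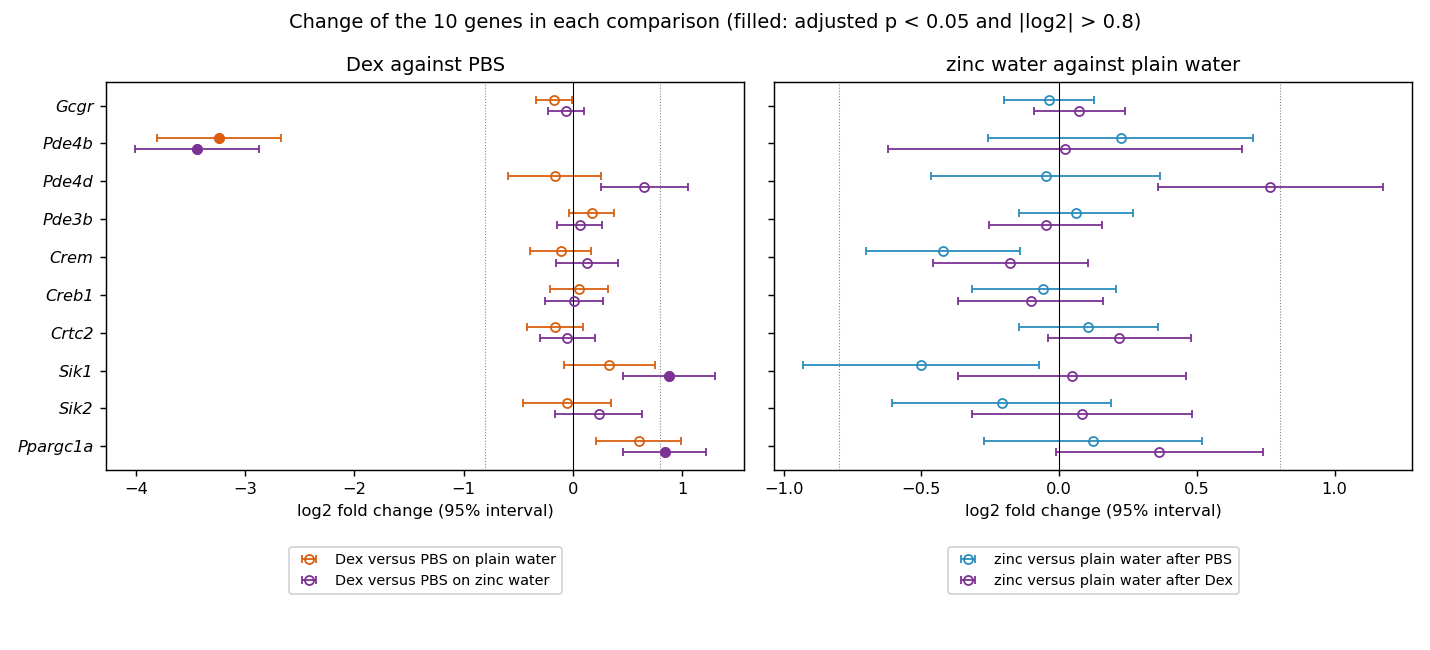
Log2 fold changes (x axis) of the 10 genes with 95% intervals from DESeq2, Dex against PBS on the left and zinc against plain water on the right; filled points passed both thresholds and dotted lines mark 0.8 on either side of 0. The filled points are *Pde4b* on both kinds of water and *Sik1* and *Ppargc1a* on zinc water, and no point on the right is filled.

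Counted over the members, 1 of 10 was called with Dex on plain water, lower, where 9.68% of all 14221 genes tested were called (4.89% higher and 4.79% lower). On zinc water 3 of 10 were called, 2 higher and 1 lower, where 9.68% of 15657 genes were called (5.001% higher and 4.68% lower). At an adjusted p under 0.05 with any fold the members numbered 2 on plain water and 4 on zinc water, against 21.6% and 20.1% of all genes. The groups did not overlap for 3 members on plain water and 4 on zinc water, which is to be read against 38.97% and 38.1% of all genes. The median log2 fold change of the 10 was -0.08 and 0.10, beside -0.01 for all genes tested in each comparison.

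Zinc after PBS gave 0 called members in DESeq2, with 2 (*Crem* and *Sik1*) at an unadjusted p under 0.05 and 0 called by edgeR, where 0.138% of all 12307 genes tested were called. The same 2 members were those whose groups did not overlap, against 11.9% of all genes. Zinc after Dex also gave 0 called members, with 1 (*Pde4d*) at an unadjusted p under 0.05 and 0 by edgeR, where 0.469% of 12786 genes were called. *Pde4d* was the 1 member with an adjusted p under 0.05 at any fold, against 1.35% of all genes, and the groups did not overlap for 3 members (*Pde4d*, *Crtc2* and *Ppargc1a*), against 20.03%. For the interaction 0 members were called by DESeq2 or edgeR, with 1 (*Pde4d*) at an unadjusted p under 0.05, and 0.0191% of 26185 genes were called. The Dex comparisons share no mouse with each other, but each shares its groups with the zinc comparisons.

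Genes whose pattern over the 12 libraries was most like that of *Pde4b*, by Pearson's r of log2(normalized count + 1) among 9573 genes with a mean of at least 50, were *Irgm2* (r = 0.990), *Rgl1* (0.977), *Parp9* (0.976), *Map3k21* (0.976) and *Mindy1* (0.975). As the 12 libraries fall into 6 with Dex and 6 without, such an r mostly describes that split. *Irgm2*, an interferon-inducible GTPase gene, went from 897 to 422 on plain water, a log2 fold change of -1.09 against -3.24 for *Pde4b*, so the likeness is in shape and not in size.

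The rest of the pathway was followed through 94 further genes in 7 lists, of which 92 had a count. With Dex on plain water 18 were called higher and 2 lower of 83 tested (24.1%), and on zinc water 22 higher and 3 lower of 86 (29.1%), beside 9.68% of all genes in each. The lists were chosen with earlier results of these data known, so these shares describe the lists and do not test for an excess. In both comparisons 17 genes were called higher and 1 lower, and 0 were called in opposite directions. The median log2 fold change was 0.03 and 0.18, beside -0.01 for all genes tested in each. The 2 genes called on plain water alone and the 7 called on zinc water alone were not shown to differ between the waters, since the interaction called 0 of the 94 in DESeq2, with 5 at an unadjusted p under 0.05, and 0 in edgeR.

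Upstream of cyclic AMP, 4 of 20 tested receptor and G protein genes were called higher on each kind of water and 1 lower on plain water. Of all genes, 9.68% were called on each water, with 4.89% and 5.001% higher and 4.79% and 4.68% lower. The counts of this list and of those below are to be read beside these shares. *Adora1* went from 99.7 to 305 on average on plain and from 109 to 363 on zinc water (log2 1.61 and 1.73). *Adrb1* was at low counts and went from 8.89 to 33.9 and from 10.1 to 40.4. The calls of *Adora1* and *Adrb1* were lost in 0 of 11 alternatives on either water. *Grk5*, a kinase that desensitizes receptors of this kind, fell by 0.96 on the log2 scale on plain water (from 81.1 to 41.5, DESeq2 adjusted p = 0.000515). On zinc water *Grk5* was 55.0 and 45.7 on average (log2 -0.27) and was not called.

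Among adenylyl cyclase genes, 2 of 7 tested were called higher on plain water, and 3 higher and 1 lower of 9 on zinc water. *Adcy6*, a main adenylyl cyclase of hepatocytes, went from 174, 195 and 223 to 111, 112 and 110.5 on zinc water, without overlap (log2 -0.83, SE 0.15, DESeq2 adjusted p = 3.4e-07), and lost its call without zinc-PBS replicate 3 (-0.73). On plain water *Adcy6* went from 188, 200 and 190 to 118, 125.5 and 136, also without overlap but under the fold threshold (log2 -0.61). The call of *Adcy5* was lost in 6 of 11 alternatives, among them the replicate block (DESeq2 adjusted p = 0.0558), and without zinc-PBS replicate 3 the calls of the list went from 4 to 2. The genes of protein kinase A, its inhibitors and anchors, and Epac had 1 call of 18 on plain water and 3 of 19 on zinc water, all higher. Their median log2 fold change was 0.04 in each, and without zinc-PBS replicate 2 the zinc-water calls went from 3 to 1, *Rapgef3* (0.68) and *Rapgef4* (0.79), the genes of the Epac proteins, losing theirs. *Pkig*, a gene of a protein kinase A inhibitor, was called on both waters, and its calls were lost in 0 of 11 alternatives. It went from 142 to 286 on plain and from 128.5 to 279.9 on zinc water (log2 1.01 and 1.12).

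The other CREB regulators had 1 higher and 1 lower of 10 on plain water and 2 of each on zinc water. *Ep300* was higher on both, going from 414 to 933 on plain and from 410 to 1011 on zinc water (log2 1.17 and 1.30). *Sik3* went from 640 to 1250 on zinc water (log2 0.965) and was under the fold threshold on plain water (0.72). These calls were lost in 0 of 11 alternatives. *Hdac5*, a class IIa deacetylase that salt-inducible kinases phosphorylate, fell with Dex on plain water from 343, 353 and 381 to 179, 215 and 174 (log2 -0.93, SE 0.14, DESeq2 adjusted p = 5.6e-10). On zinc water it fell from 348, 375 and 394 to 231, 232 and 173 (log2 -0.82, SE 0.14, DESeq2 adjusted p = 4.3e-08), and it was under the fold threshold there without zinc-PBS replicate 3 (-0.77) or zinc-Dex replicate 3 (-0.68). *Crtc1*, a relative of *Crtc2* best known from brain, fell on zinc water from 95.9 to 50.4 on average (log2 -0.92, DESeq2 adjusted p = 0.000978), a call lost without zinc-PBS replicate 3 (-0.78) or zinc-Dex replicate 1 (-0.73), so that without zinc-PBS replicate 3 the list had 0 genes called lower. Of the 5 partners and relatives of PGC-1alpha, 3 were called higher on plain water and 2 on zinc water, with medians of 0.84 and 0.76.

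**Figure D4:**
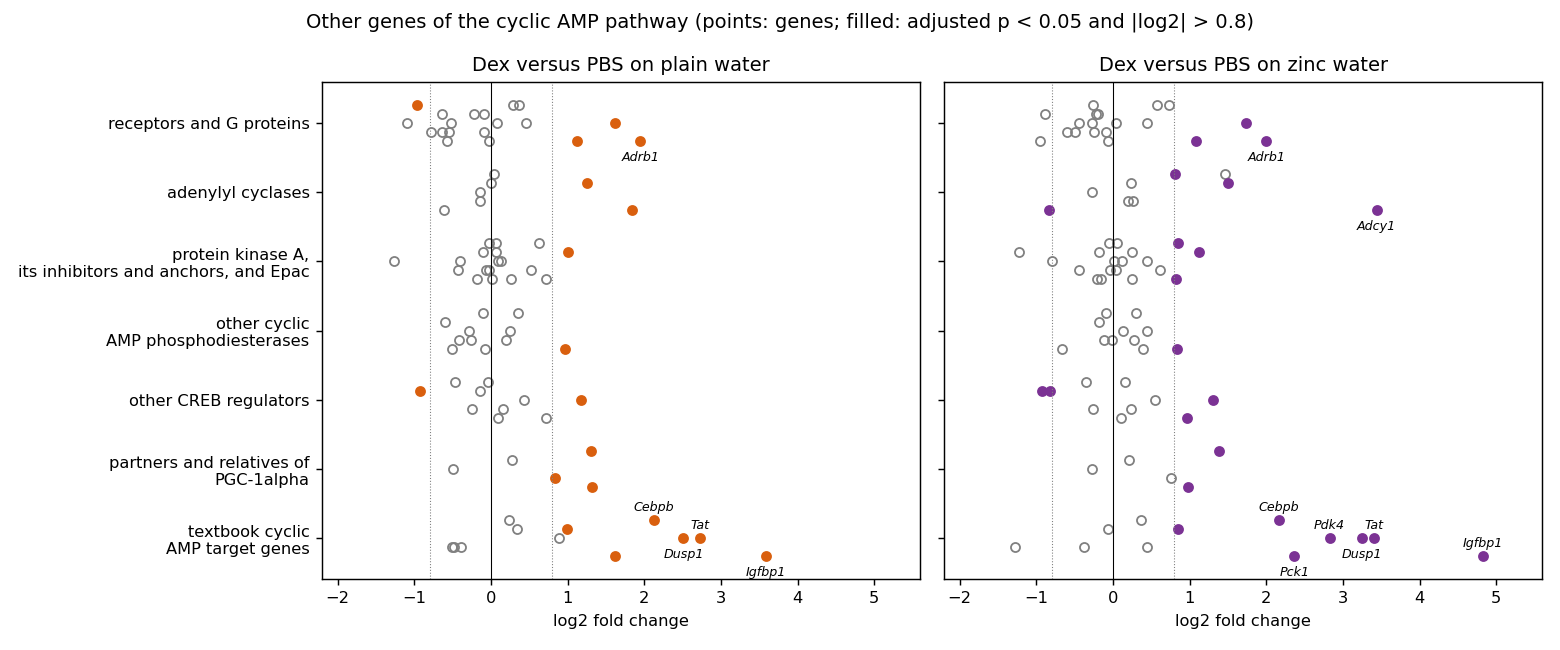
Log2 fold change with Dex (x axis) of each tested gene of the 7 further lists (y axis), on plain water (left) and zinc water (right); filled points passed both thresholds. Among the target genes *Igfbp1* reaches 3.58 and 4.83, and 1 gene of the receptor list is not plotted.

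Of the 12 tested textbook targets of cyclic AMP, 6 were called higher on plain water and 7 on zinc water, with 0 lower. Of all genes, 4.89% and 5.001% were called higher. The medians of the list were 0.95 and 1.51. Several of its genes, such as *Pck1*, *Tat*, *Dusp1*, *Per1* and *Igfbp1*, are also known direct targets of the glucocorticoid receptor, so the list does not single out cyclic AMP. Not called on plain or zinc water were *Fos* (log2 -0.39 and -0.37), *Nr4a1* (0.345 and -0.07), *Nr4a2* (0.23 and 0.36), *Irs2* (-0.475 and -1.28) and *G6pc* (-0.505 and 0.44). With only the 6 libraries compared, 1 target was called lower on zinc water. *Per1*, a clock gene, lost its call with the replicate block on both waters (DESeq2 adjusted p = 0.0506 and 0.112), without water-PBS replicate 3 on plain water, and without zinc-PBS replicate 3, zinc-Dex replicate 1 or zinc-Dex replicate 3 on zinc water. *Tat*, tyrosine aminotransferase, rose from 7871, 8446 and 12189 to 62605, 64082 and 61567 on plain water (log2 2.72, SE 0.16, DESeq2 adjusted p = 3.5e-62). On zinc water it rose from 8189, 6379.6 and 6174 to 84028, 69702 and 65078 (log2 3.40, SE 0.16, DESeq2 adjusted p = 5.7e-97). The Dex and PBS groups were far apart on both waters.

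*Igfbp1*, a secreted binding protein for insulin-like growth factors, was more variable, at 1949, 896 and 85.7 in water-PBS and 8868, 15305 and 10928 in water-Dex (log2 3.58, SE 0.92, DESeq2 adjusted p = 0.00101). On zinc water it went from 764, 122 and 778 to 19720.4, 16016 and 11412 (log2 4.83, SE 0.92, DESeq2 adjusted p = 2.9e-06). *Dusp1*, a phosphatase of MAP kinases, rose by 2.51 and 3.25 on the log2 scale, and *Cebpb*, a transcription factor of the fasting response, by 2.13 and 2.16, each without overlap of the groups. For *Cebpb*, 20.7% of the exonic length lies opposite *Tmem189*, so its level is uncertain to that extent. *Pdk4*, which spares glucose by blocking pyruvate oxidation, was called on zinc water alone (log2 2.83, SE 0.83, DESeq2 adjusted p = 0.0052), a call lost without zinc-Dex replicate 2 (log2 2.47, DESeq2 adjusted p = 0.0547), and on plain water a single control at 1006 lay inside the range of the treated mice.

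With zinc after PBS, 1 gene of the 77 tested in these lists was called. *G6pc*, glucose-6-phosphatase, the last enzyme of glucose release, was at 2802, 3249.8 and 1747 in water-PBS and at 828, 538.5 and 999.5 in zinc-PBS. The groups did not overlap, and the gene fell by 1.72 on the log2 scale (SE 0.34, DESeq2 adjusted p = 0.000486). After Dex it was at 1251, 2171 and 2076 on plain water and 953, 1419.6 and 841 on zinc water, which overlapped. There 0 of 78 genes tested were called, with 5 at an unadjusted p under 0.05 and 0 in edgeR.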

How the data were processed

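Whole-liver RNA had been made into strand-specific TruSeq libraries and read from a single end (NextSeq 500). The authors aligned these reads to mm10 with HISAT (version 2.0.4 per the submitters' processing notes, which also name Trimmomatic and SAMtools) and obtained a read count per gene with featureCounts, leaving out multimapping reads. The deposited values are these raw counts, 1 column per mouse, without normalization. Which annotation was counted on, and with which strand option, is not given in the sources used here, so genes with exons opposite another gene are uncertain.

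Of 54838 genes, 26191 had a count. Symbols and coordinates came from GENCODE M21, and promoter windows from RefSeq (GRCm38.p6). Library totals of 9091152 to 12303527 set the precision, and a member's lowest raw count was 16. Replicates of a group differed by 6.20 to 20.7 times counting noise (chi-square per degree of freedom), so none had been deposited more than once.

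DESeq2 1.42.0 (R 4.3.3) fitted the 12 libraries with 1 coefficient per group, and Wald tests with Benjamini-Hochberg adjustment over all genes gave calls where the adjusted p was below 0.05 and log2 changed by more than 0.8, thresholds that follow the study's methods. On simulated counts this fit and edgeR were tested before use. Alternatives were edgeR 4.0.16 (quasi-likelihood, TMM, filterByExpr), TMM factors, a minimum of 10 counts in 3 libraries, the replicate number as a block, only the 6 libraries compared, no fold threshold, and leaving out each library. With 3 mice against 3 an exact permutation test cannot go below p = 0.1, so p-values of single genes depend on the spread that the model shares across genes.

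The members and the further gene lists were chosen with earlier results of these data known. Besides all 10 members and the label checks, the text names from the further lists the 5 called genes that rose most and the 5 that fell most in each Dex comparison, if their mean reached 50 normalized counts, and any gene called for zinc, plus the 5 genes most like the called member with the largest decrease. Of the genes so selected, 1 is not reported here. *Pde1a*, *Pde8a*, *Pde2a*, *Pck1*, *Per1*, *Fos*, *Nr4a1*, *Nr4a2*, *Irs2*, *Adora1*, *Adrb1*, *Adcy1*, *Adcy5*, *Adcy9*, *Pkig*, *Ep300*, *Sik3*, *Rapgef3* and *Rapgef4* are named outside this rule, after their values were seen. Same-numbered libraries of different groups did not deviate together (correlations -0.20 to 0.19 over 18 pairs), so replicate numbers were not taken as pairs.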

Additional observations from a re-analysis of the deposited data

How the results depend on the processing

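Of 600 recomputed member values (10 genes in 5 comparisons), 596 stayed called or uncalled as reported, 2 lost a call, 2 gained one and 0 reversed a called direction. Most of the 596 were uncalled throughout. Small uncalled changes could differ in sign between alternatives, as for *Creb1* with Dex on plain water (-0.06 to 0.12). *Pde4b* stayed between -3.48 and -3.004 on plain water and between -3.61 and -3.24 on zinc water over all alternatives. Both lost calls were *Ppargc1a* with Dex on zinc water, and both gained calls *Pde4d*, each on leaving out 1 library as given above. Without the fold threshold the members called with Dex on plain water went from 1 to 2 (adding *Ppargc1a*), those called for zinc after Dex from 0 to 1 (*Pde4d*), and the further pathway genes called with Dex on plain water from 20 to 32. Leaving out 1 library gave 0 to 1 members for zinc after Dex, and 1 to 2 further genes for zinc after PBS (2 without water-PBS replicate 3, adding *Adcy1*).

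With the replicate number as a block, the members called were 1 and 3 with Dex on plain and zinc water and 0 for each zinc comparison and the interaction, and *Pde4b* stood at -3.24 and -3.43, so the block changed no member's call. Among the further genes *Per1* (both waters) and *Adcy5* (zinc water) lost theirs. Of 18 same-numbered pairs 1 had a correlation over 0.1, and 2 of 12 libraries correlated best with their own number. Over all genes, the calls went from 1376 to 3067 and from 1516 to 3145 with Dex on plain and zinc water when no fold threshold was set. Zinc after PBS, with 17 calls, gave 9 in edgeR, 42 without the fold threshold and 11 to 38 on leaving out 1 library (38 without water-PBS replicate 3). Zinc after Dex, with 60, gave 21, 173 and 26 to 101 (101 without zinc-Dex replicate 2), and the interaction, with 5, gave 3 in edgeR, 8 with the block and up to 23 on leaving out 1 library (without zinc-Dex replicate 2). The backgrounds printed for the zinc comparisons therefore depend on single mice.

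Depth limits *Pde4b* after Dex, with 16 to 35 raw counts per library, and *Pde4d*, with 50 to 93, more than the other members. With 3 mice a group, the intervals of several members reach past the fold threshold, so a missing call does not show that a gene was unaffected.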
